A study of Mus musculus with 6 samples.

Results

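The genes described here are 43 mouse genes of meiosis, the piRNA pathway, the early oocyte and pluripotency, which differentiated cells such as fibroblasts normally keep silent. They were chosen by function from a list of names, with Dazl, Gtsf1, Rhox5 and Tex19.1 left out. Probe sets with 1 of these names as their only gene symbol were found for 41 of the 43 genes (49 of 45037 probe sets, among 18193 named genes); Fkbp6 and Tdrd6 were not analysed here. Where a gene had several probe sets, the one with the highest mean signal over all arrays is described first.

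The cells were dermal fibroblasts from newborn mice aged 0 to 2 days, at passage 4, labelled as strain B6. Their mothers were wild-type BL6 mice. Their fathers, of mixed 129/ICR background, carried an X-linked GFP transgene under a chicken β-actin promoter with a CMV enhancer. Every group started from cells sorted as not expressing GFP. In those that carried the transgene, it lay on the inactive X. Control cells were left untreated over the same 48 hours and 24 hours of recovery, and had no second sort. Treatment was with 5-aza-2'-deoxycytidine (decitabine), a nucleoside that traps DNA methyltransferases so that methylation is lost as cells divide, at 4 μM for 48 hours, followed by 24 hours in normal medium. Treated cells were then sorted into GFP-negative cells, which still showed no GFP, and GFP-positive cells, whose transgene had become active. Each of the 3 groups had 2 arrays, labelled biological replicates, and the label of control replicate 2 gives mixed sex. Total RNA was measured on Affymetrix mouse arrays that give 1 signal per probe set. Signals are from bulk RNA, so fewer cells expressing a gene and less RNA per cell cannot be told apart. The further sort of the treated cells and the drug cannot be told apart either.

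In germ cells, meiosis rests on a proteinaceous chromosome axis and synaptonemal complex, on which DNA breaks are made and repaired by recombination. The piRNA pathway uses PIWI proteins, Tudor-domain proteins and helicases to silence transposons. Many genes of both programmes have CpG-rich promoters that are methylated in somatic cells, which is why an inhibitor of DNA methylation is of interest for them. Pluripotency factors such as Oct4 (Pou5f1) and Nanog are switched off as embryonic cells differentiate, by transcriptional and chromatin mechanisms as well as methylation.

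The promoters of the 3 genes with the clearest differences, and that of Nanog as a CpG-poor member whose signal was low on every array, are shown to make the sites of possible methylation visible. They are RefSeq sequences of build GRCm38.p6, from 250 bases before to 50 bases after the start site, with each CpG dinucleotide in capitals. Slc25a31 lies at chr3:40708621-40708920 on the plus strand, Taf7l at chrX:134476441-134476740 on the minus strand, Sohlh2 at chr3:55181794-55182093 on the plus strand, and Nanog at chr6:122707239-122707538 on the plus strand.
Slc25a31: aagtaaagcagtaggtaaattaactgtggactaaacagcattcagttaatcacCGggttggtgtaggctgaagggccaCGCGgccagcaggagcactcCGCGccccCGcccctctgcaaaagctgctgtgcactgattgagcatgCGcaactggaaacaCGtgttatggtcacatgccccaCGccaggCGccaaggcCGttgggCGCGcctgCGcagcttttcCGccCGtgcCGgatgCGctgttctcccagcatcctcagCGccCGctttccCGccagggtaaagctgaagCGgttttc
Taf7l: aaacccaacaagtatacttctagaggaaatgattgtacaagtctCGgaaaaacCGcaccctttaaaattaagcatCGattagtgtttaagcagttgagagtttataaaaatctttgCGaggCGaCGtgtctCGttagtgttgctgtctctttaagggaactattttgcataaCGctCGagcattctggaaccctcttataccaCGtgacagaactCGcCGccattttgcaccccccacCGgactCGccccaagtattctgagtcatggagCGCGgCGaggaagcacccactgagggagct
Sohlh2: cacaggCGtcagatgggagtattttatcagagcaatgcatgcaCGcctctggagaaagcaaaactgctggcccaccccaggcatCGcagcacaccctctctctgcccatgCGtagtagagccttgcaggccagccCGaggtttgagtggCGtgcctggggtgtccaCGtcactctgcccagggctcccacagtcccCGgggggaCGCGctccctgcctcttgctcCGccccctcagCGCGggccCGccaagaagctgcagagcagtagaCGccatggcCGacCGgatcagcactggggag
Nanog: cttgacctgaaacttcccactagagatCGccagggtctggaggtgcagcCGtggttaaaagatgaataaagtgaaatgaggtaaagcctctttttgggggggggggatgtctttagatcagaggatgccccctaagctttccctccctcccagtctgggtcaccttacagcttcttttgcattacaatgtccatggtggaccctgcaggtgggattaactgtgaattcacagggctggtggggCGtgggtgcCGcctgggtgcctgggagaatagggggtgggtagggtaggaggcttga

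These stretches hold 22 CpG in Slc25a31, 17 in Taf7l, 17 in Sohlh2 and 4 in Nanog. Over the 33 measured members with a RefSeq promoter the median was 18, at the entry with the most CpG, against 15 over 17491 protein-coding genes. Members of the chromosome axis had a median of 22.5, those of the piRNA pathway 20, and the 3 pluripotency genes with an entry (Pou5f1, Nanog and Zfp42) had 11. The remaining 8 measured members had no entry.

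**Figure D1:**
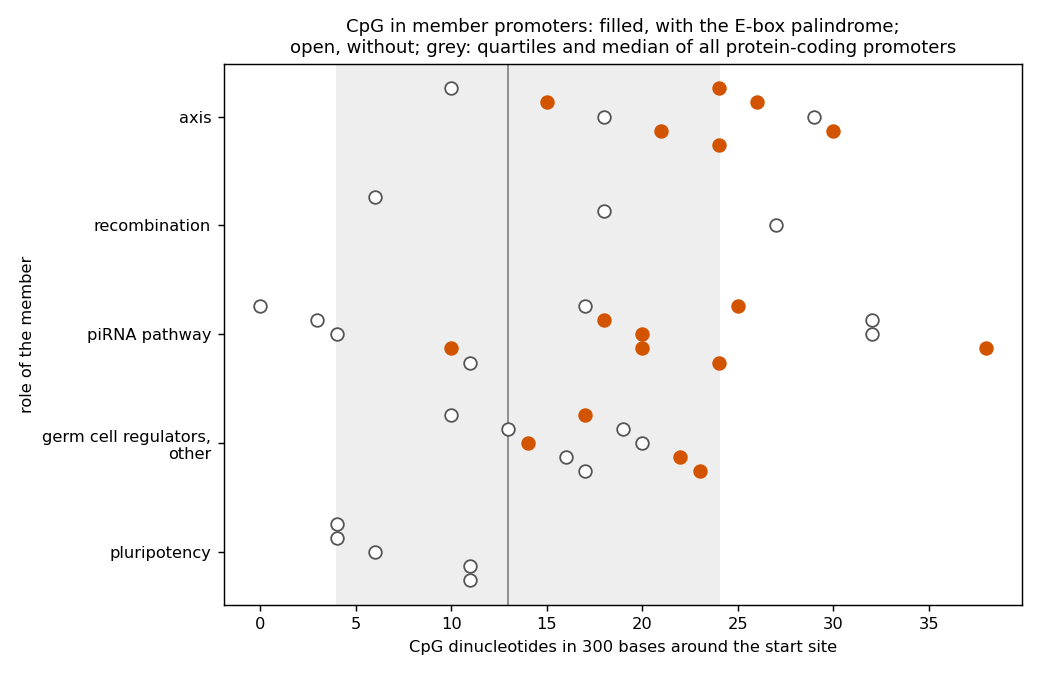
CpG dinucleotides in the 300 bases around each start site (x axis), for every promoter entry of the measured members, by role (y axis); filled points hold the E-box palindrome and open points do not, and grey marks the quartiles (4 to 24) and median (13) of 21262 protein-coding promoters. Pluripotency promoters lie at 11 or fewer CpG, and axis promoters reach 30.

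The E-box palindrome CACGTG, which reads the same on both strands and holds a CpG, is bound by several basic helix-loop-helix factors. It was present in the promoters of 15 of the 33 members (45.5%), against 8.91% of protein-coding genes. Members and protein-coding genes were not matched for CpG content, with medians of 18 and 15. The palindrome was found in 5 of 8 axis genes, 6 of 9 piRNA genes and 4 of 10 germ cell regulators and other germ cell genes, and in 0 of 3 recombination and 0 of 3 pluripotency genes. The letters TCCCGC or their reverse complement GCGGGA, the core of sites bound by E2F factors, were in 13 of the 33 (39.4%) against 28.4% of protein-coding genes, and in 7 of the 8 axis genes. A match shows only that the letters are there. Windows of 26 bases with the palindrome in capitals, on the strand of the gene, are given for some of the sites in genes described below.
Slc25a31, chr3:40708768-40708793: caactggaaaCACGTGttatggtcac
Taf7l, chrX:134476524-134476549: cctcttatacCACGTGacagaactcg
Stag3, chr5:138280329-138280354: cgctggagccCACGTGacaggactgc
Tex12, chr9:50561346-50561371: gcgagactgtCACGTGgctcgcgcgc
Sycp3, chr10:88459513-88459538: cgttggctccCACGTGagaacgggca
Ddx4, chr13:112652324-112652349: cgtccgcccgCACGTGcagccgttta

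Deposited signals were brought to a 2% trimmed mean of 500 on each array, which multiplied GFP-negative replicate 2 by 8.06 and GFP-positive replicate 2 by 9.90. The arrays numbered 2 remained dimmer at the low end, with lower quartiles of 19.2 to 22.6 against 38.7 to 42.6 on those numbered 1, in every group. Groups are therefore compared within each number. A signal was called near background if it lay under the 95th percentile, on its array, of 83 probe sets for olfactory, vomeronasal and taste receptor genes. That level ranged from 132.8 to 184.8 over arrays numbered 1, and from 79.7 to 93.6 over those numbered 2. Probes differ in affinity, so a signal near background does not show that a gene is silent. All 9 measured fibroblast markers were above background in control cells. Their summed signal was 185791 and 195633 in control, 155398 to 164470 in GFP-negative and 153564 to 155312 in GFP-positive cells. The brightest markers dominate that sum. With the block described below, 5 of the 9 were called lower in GFP-positive cells, Col1a1, Col3a1, Pdgfra, Dcn and Lum. All of these but Col1a1 were called lower in GFP-negative cells (4 of 9), and 0 were called higher in either group. Log2 differences were largest for Dcn (-3.36 in GFP-positive and -2.61 in GFP-negative cells) and Lum (-2.92 and -3.25). The part of these markers in the results was not tested. Of 7 keratinocyte and 7 melanocyte markers, 5 and 4 were near background on all arrays. The keratinocyte marker Krt10 and the melanocyte markers Mitf and Sox10 were above it on all 6 arrays, Pmel on 4 and Krt5 on 3. The summed signal of 7 leukocyte markers was 839.2 to 1066 in control, 1257 to 1628 in GFP-negative and 1312 to 1416 in GFP-positive cells, with Ptprc, Cd3e and Itgam near background on every array and Csf1r above it on every array. The macrophage marker Cd68 read 84.1 and 30.5 in control, 184.9 and 148.3 in GFP-negative, and 169.1 and 202.8 in GFP-positive cells. Of the 7 leukocyte markers, 4 lay above control within both numbers in each treated group, Cd3e, Cd68, Csf1r and Laptm5. Below control within both numbers were 1 in GFP-positive cells, Itgam, and 0 in GFP-negative cells. Cd68 and Laptm5 were higher by 1.37 and 0.67 in GFP-positive and 1.23 and 0.67 in GFP-negative cells. None of the 7 was called, with or without the block. The part of these markers in the results below was not tested.

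Each gene was judged by its brightest probe set. Of the 41 members, 26 stayed near background on all 6 arrays (63.4%, against 26.6% of all named genes), 14 were above it on 1 to 5 arrays, and Tdrd7 was above it on all 6. Only Tdrd7 was above background on both control arrays. In GFP-negative cells 4 members were above it on both arrays, Tdrd7, Tex15, Sohlh2 and Taf7l. In GFP-positive cells there were 8, these 4 with Slc25a31, Asz1, Piwil2 and Stag3. Over all genes the share was 55.2% in control, 56.6% in GFP-negative and 53.9% in GFP-positive cells. With the 90th percentile as the level the members' counts were 3, 8 and 8, so control remained lowest but the treated groups were equal.

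Differences are on a log2 scale after adding 30.64 to each signal, so those of dim probe sets are understated. In GFP-positive cells 28 of the 41 members were higher than control within both replicate numbers and 0 were lower in both, against 34.2% and 27.4% of all genes. Most of the 28 were near background on all 6 arrays. Any difference above 0 counted as higher, even 0.0007 for Rec8 within replicate 2. The median difference of the 41 members was 0.34 within replicate 1 and 0.59 within replicate 2, where all genes had 0.03 and 0.04. In GFP-negative cells 16 were higher in both and 3 lower in both (Msh5, Stra8 and Brdt), against 32.8% and 26.4% of all genes, with medians of 0.29 and 0.14. The treated groups share their control arrays. At least 1 log2 unit higher in both numbers were Slc25a31, Taf7l, Sohlh2, Tex11, Tex12 and Dppa2 in GFP-positive cells (6 of 41, against 1.80% of all genes; 0 were that much lower, against 1.24%) and Slc25a31, Taf7l and Sohlh2 in GFP-negative cells (3 of 41, against 1.43%), where Brdt was that much lower (1 of 41, against 0.978%).

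**Figure D2:**
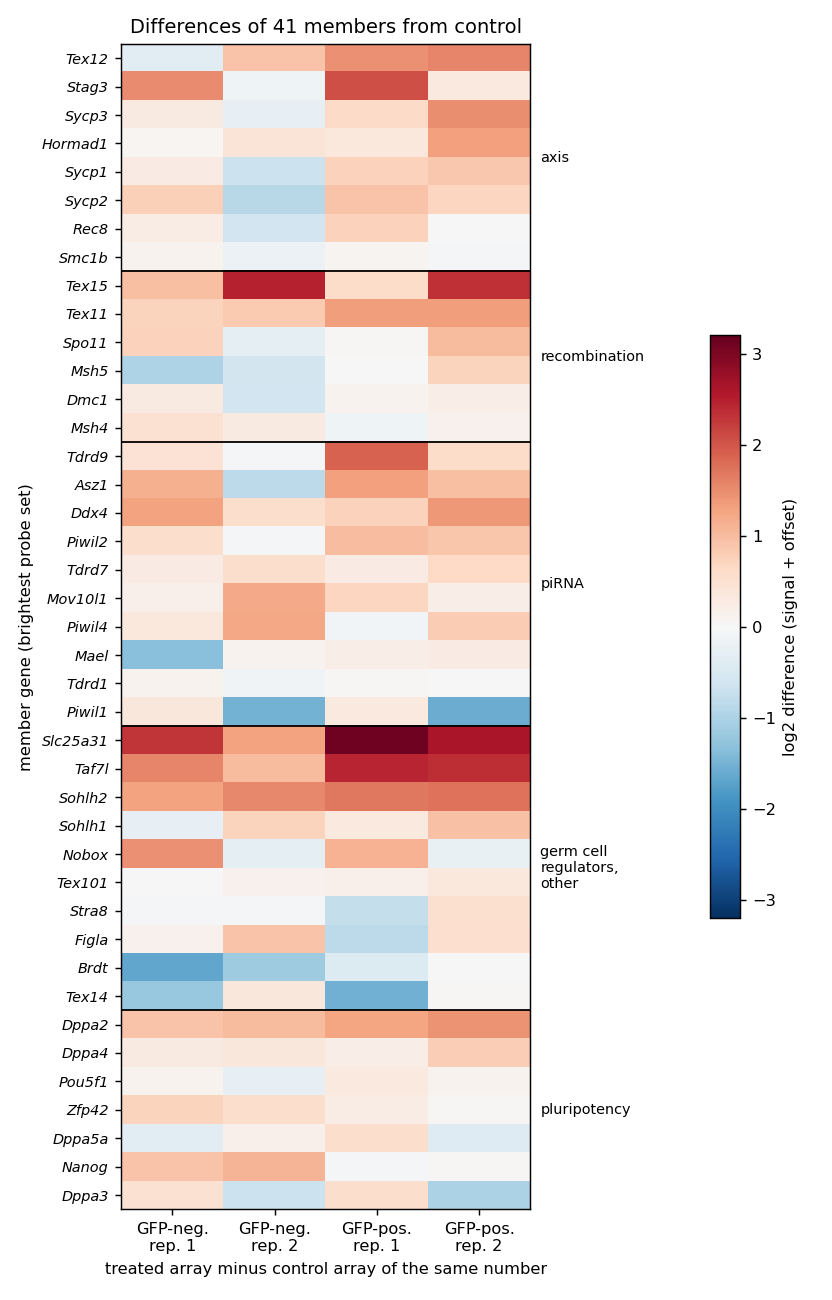
Log2 differences (colour) between each treated array and the control array of the same replicate number (columns), for the brightest probe set of the 41 measured members (rows, grouped by role and sorted by the mean GFP-positive difference). Slc25a31, Taf7l and Sohlh2 are red in all 4 columns; most other rows mix colours or are pale.

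In limma fits over all 6 arrays, 18 member probe sets, of 17 genes, passed the filter on low signals. The filter is on the mean over all arrays, so a member could pass through the group in which it was high. None of the 18 passed an adjusted p of 0.05 in GFP-positive against control cells, where 0.122% of 27022 probe sets did (0.0888% higher and 0.0333% lower). None passed in GFP-negative against control cells, where 0.0296% did (0.0259% higher and 0.0037% lower). In limma 3 of the 18 had an unadjusted p under 0.05 in each comparison, against 7.04% and 5.07% of all probe sets. With the replicate number as a block, which takes out the difference between the array sets, 3 were called higher in GFP-positive cells, Taf7l, Sohlh2 and Slc25a31, and 0 lower. Of all probe sets 6.21% were called there, 3.15% higher and 3.06% lower. At an unadjusted p under 0.05 there were 9 of the 18, against 20.3% of all. In GFP-negative cells 2 were called higher with the block, Taf7l and Sohlh2, and 0 lower, where 3.57% of all were called, 1.90% higher and 1.68% lower. At an unadjusted p under 0.05 there were 5, against 16.2%. With the block but no mean-variance trend in the variances, 0 were called in either comparison.

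Slc25a31 encodes the testis form of the mitochondrial ADP/ATP carrier, a gene that in somatic cells is silenced with methylation of its promoter. Its signal was 6.5 and 15.4 in control replicates 1 and 2, 150.5 and 82.2 in GFP-negative cells, and 291 and 251.3 in GFP-positive cells. The 3 groups did not overlap, and the control signals were 0.0489 and 0.164 times their background level. The difference from control was 2.86 ± 0.54 (SE) in GFP-positive cells, or 3.11 and 2.61 within the numbers (limma adjusted p = 0.156, or 0.00333 with the block). Because the control signals are so low, its size depends on the offset, and it was 1.56 with 4 times the offset and 3.94 with 0.25 of it. In GFP-negative cells the difference was 1.79 ± 0.54, 2.29 and 1.29 within the numbers (adjusted p = 0.627, or 0.0518 with the block), and 0.83 or 2.72 with the other offsets. Slc25a31 passed the filter through the treated arrays, since its control signals were at most 15.4. With the block and all probe sets tested, its limma adjusted p was 0.011 in GFP-positive and 0.130 in GFP-negative cells. Its widely expressed relatives Slc25a4 and Slc25a5 were at -0.10 and -0.04 in GFP-positive cells, and neither passed the test with or without the block.

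Taf7l is an X-linked, germ cell counterpart of the general transcription factor subunit Taf7. Its signal was 116.3 and 51.4 in control, 402.5 and 135.4 in GFP-negative, and 771.6 and 394.8 in GFP-positive cells. Every treated array was above both control arrays, and within each number GFP-positive was highest. The difference of 2.41 ± 0.57 in GFP-positive cells was 2.45 and 2.37 within the numbers (limma adjusted p = 0.281, or 0.000483 with the block). In GFP-negative cells it was 1.29 ± 0.57, with 1.56 and 1.02 (adjusted p = 0.998, or 0.0292 with the block), and that blocked call was lost when all probe sets were tested (0.0798). It was 0.60 without GFP-negative replicate 1 and 1.98 without GFP-negative replicate 2, values that also hold the difference between array sets.

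Sohlh2 encodes a helix-loop-helix transcription factor of spermatogonia and early oocytes. It stood at 148.9 and 78.8 in control, 411.2 and 287.8 in GFP-negative, and 547.3 and 337.4 in GFP-positive cells. Treated and control arrays did not overlap, while the treated groups did. Its differences were alike in both numbers, 1.69 and 1.75 in GFP-positive cells (1.72 ± 0.41, limma adjusted p = 0.281, or 0.00243 with the block) and 1.3 and 1.54 in GFP-negative cells (1.42 ± 0.41, adjusted p = 0.604, or 0.0105 with the block). Its partner Sohlh1 was near background on all arrays, between 16.7 and 119.2.

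**Figure D3:**
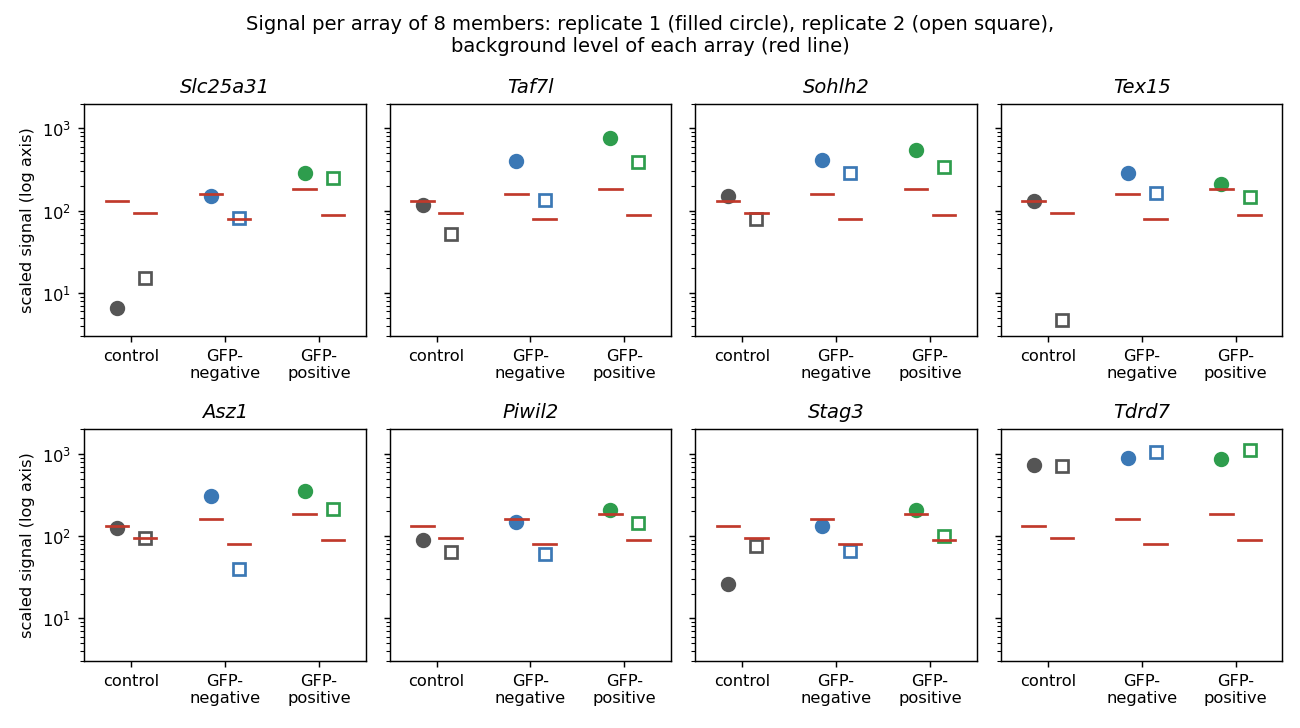
Scaled signal (log axis) of 8 members on each array, by group; filled circles are replicate 1, open squares replicate 2, and red lines the background level of the same array. Slc25a31 lies far below the lines in control cells and above them in GFP-positive cells (291 and 251.3), while Tdrd7 is above them everywhere.

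Other genes of this set did not pass any test. Brdt, a bromodomain protein of spermatocytes, was near background on all arrays; its brightest probe set read 121.4 and 61.2 in control, 17.8 and 11.3 in GFP-negative, and 81.2 and 61.3 in GFP-positive cells. That was lower in GFP-negative cells by more than 1 log2 unit in both numbers, but its other 2 probe sets read in opposite directions within the numbers. Stra8, the retinoic acid target that starts meiosis, was at 148.5 and 66.1 in control and 75 and 107.9 in GFP-positive cells, with no common direction. The oocyte factors Figla and Nobox and the germ cell proteins Tex14 and Tex101 remained near background on all arrays, with a highest signal of 107.8 for Nobox in GFP-negative replicate 1.

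Among the 8 genes of the chromosome axis and synaptonemal complex, 5 were near background on all arrays and 0 were above it on both control arrays. As a group they had a median difference of 0.81 in GFP-positive and -0.01 in GFP-negative cells. In GFP-positive cells 7 of them were higher than control within both numbers, against 34.2% of all genes. Rec8 is counted there with a difference of 0.0007 within replicate 2. Sycp3, a protein of the lateral element, was at 60.4 and 52.7 in control, 80.6 and 38.7 in GFP-negative, and 108.8 and 202.8 in GFP-positive cells. Its difference in GFP-positive cells was 1.05 ± 0.59 (0.62 and 1.49; limma adjusted p = 0.860, or 0.261 with the block), and it cleared background in GFP-positive replicate 2 only. The transverse filament protein Sycp1 had a similar course, with 50.3 and 54.7 in control, 66.1 and 22.6 in GFP-negative, and 104.6 and 124.7 in GFP-positive cells (0.80 ± 0.64).

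Tex12, a central element protein, was too dim for the filter, at 21.7 and 2.6 in control, 10.2 and 31.4 in GFP-negative, and 112.9 and 68.3 in GFP-positive cells. Both GFP-positive arrays were above all others, yet under their background level (limma without a filter, 1.51 ± 0.51, adjusted p = 0.658, or 0.150 with the block). Stag3, the meiotic cohesin subunit, was above background on both GFP-positive arrays, at 209.5 and 99.9, against 26.5 and 74.8 in control and 132.4 and 65.3 in GFP-negative cells. That difference was uneven, 2.07 in the first number and 0.31 in the second (limma 1.19 ± 0.63, adjusted p = 0.828, or 0.220 with the block). Its somatic relatives Stag1 and Stag2 were above background on all arrays. The cohesin subunits Smc1b and Rec8 were dim everywhere, with Smc1b at 15.5 or less.

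Of the 6 recombination genes 4 were near background on all arrays, among them Dmc1, the meiotic recombinase, and the mismatch repair relatives Msh4 and Msh5. The second Dmc1 probe set was above background on 1 array, at 108.2 in control replicate 2 against a level of 93.6. Tex15, a protein needed for meiotic break repair and for transposon silencing in the male germ line, was at 130.1 and 4.7 in control, 285.3 and 163.7 in GFP-negative, and 212 and 148.4 in GFP-positive cells. All 4 treated arrays were above both control arrays, but the control arrays were far apart. Its difference was 1.47 ± 0.73 in GFP-positive cells, 0.59 and 2.34 within the numbers (limma adjusted p = 0.788, or 0.0861 with the block), and 1.72 ± 0.73 in GFP-negative cells (0.970, or 0.0674 with the block). X-linked Tex11, which acts in crossover formation, was near background but ordered alike in both numbers, with 22.4 and 15.2 in control, 55.6 and 51.6 in GFP-negative, and 103.6 and 85.1 in GFP-positive cells. Without the filter its GFP-positive difference was 1.34 ± 0.55 (limma adjusted p = 0.806, or 0.204 with the block). Spo11, which makes the meiotic breaks, was at 89.9 and 18.2 in control and 93.2 and 68.3 in GFP-positive cells, a difference of 0.53 ± 0.92.

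Among the 10 measured piRNA genes 6 were near background on all arrays, including the PIWI proteins Piwil1 and Piwil4, the helicase Ddx4, Mael, Tdrd1 and the helicase Tdrd9. Tdrd7, a Tudor protein that also acts outside the germ line, in the eye lens, was the bright exception, at 726 and 705.9 in control, 884.4 and 1063 in GFP-negative, and 876.6 and 1119 in GFP-positive cells. Treated arrays exceeded control arrays without overlap, by 0.45 ± 0.25 in GFP-positive and 0.42 ± 0.25 in GFP-negative cells, and neither passed the test (limma adjusted p = 0.841 and 1.00, or 0.174 and 0.268 with the block). Leaving out GFP-positive replicate 2 gave 0.28 for the first of these, and leaving out replicate 1 of that group gave 0.62. Such values also hold the difference between array sets. The second Tdrd7 probe set read 24.2 or less on all arrays.

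Asz1, an ankyrin repeat protein of the germ cell intermitochondrial cement, was at 124.4 and 94.8 in control, 308.5 and 39.5 in GFP-negative, and 351.6 and 211.8 in GFP-positive cells. Its difference in GFP-positive cells was 1.13 ± 0.71, with 1.3 and 0.95 within the numbers (limma adjusted p = 0.917, or 0.179 with the block), and its other probe set gave 0.84 and 2.70 (adjusted p = 0.761, or 0.0512). The GFP-negative arrays lay on either side of control on the brighter probe set. Piwil2, a PIWI protein of prospermatogonia and later male germ cells, stood at 89.8 and 63.4 in control, 146.8 and 61.3 in GFP-negative, and 207.1 and 144.5 in GFP-positive cells (0.94 ± 0.53; 0.98 and 0.90; adjusted p = 0.861, or 0.199 with the block). GFP-positive arrays were above both control arrays for Piwil2 and for both Asz1 probe sets. Ddx4, the vasa homologue used to mark germ cells, was at 25.8 and 5.1 in control, 107.6 and 21.8 in GFP-negative, and 63.8 and 63.3 in GFP-positive cells, all below background.

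**Figure D4:**
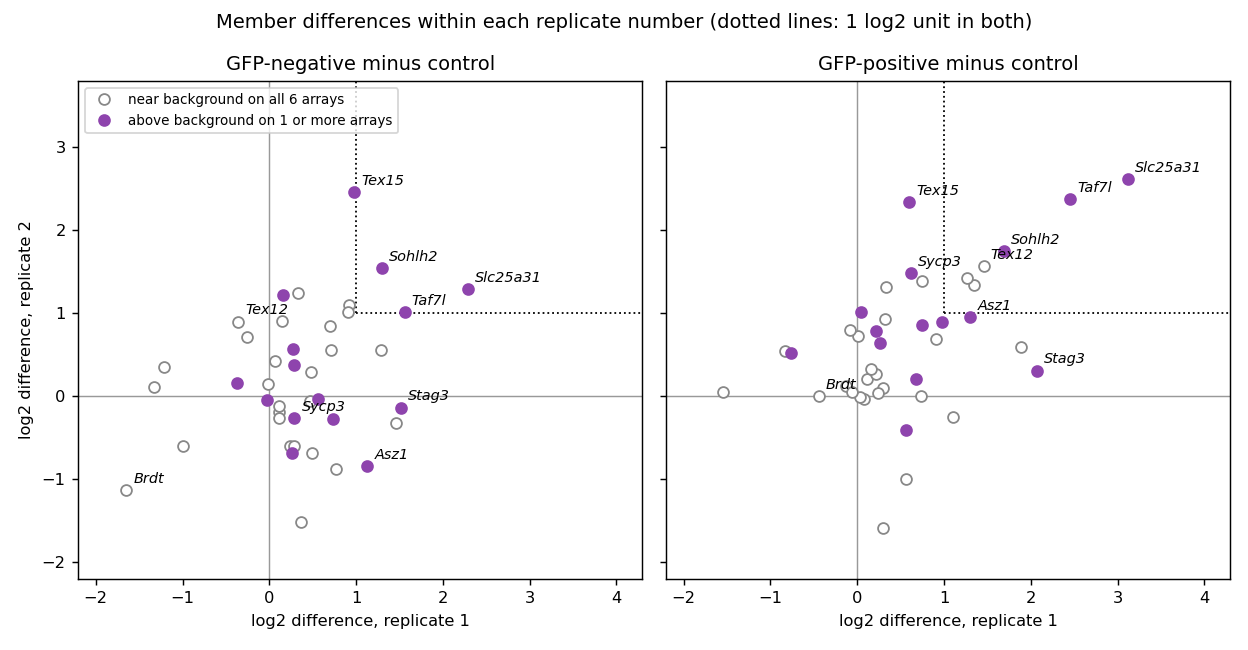
Log2 difference from control within replicate 1 (x axis) and replicate 2 (y axis) for the 41 measured members, in GFP-negative (left) and GFP-positive cells (right); open points were near background on all 6 arrays, and dotted lines mark 1 log2 unit in both. Slc25a31, Taf7l and Sohlh2 lie beyond the lines in both panels.

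Of the 7 pluripotency genes 5 were near background on all arrays, and 0 were above it on both arrays of any group. Pou5f1 (Oct4) read 9.9 and 26.4 in control, 13.3 and 16.9 in GFP-negative, and 19.3 and 30.7 in GFP-positive cells. Nanog read 10.5 and 4.8 in control, 47.3 and 45.1 in GFP-negative, and 8.9 and 5.9 in GFP-positive cells. The GFP-negative arrays were thus highest for Nanog, though well under background, and also for Zfp42 (Rex1), which read 40.3 or less. Dppa2, a chromatin-associated protein of early embryos, was at 34.3 and 9.1 in control, 90.9 and 50 in GFP-negative, and 125.9 and 76.2 in GFP-positive cells. Without the filter its GFP-positive difference was 1.35 ± 0.61 (limma adjusted p = 0.876, or 0.207 with the block), but its second probe set lay below control in replicate 2 (-0.31). Its partner Dppa4 was at 99.0 and 65.8 in control and 119.8 and 135.6 in GFP-positive cells (0.50 ± 0.49). Dppa3 and Dppa5a moved in opposite directions in the numbers.

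Between GFP-positive and GFP-negative cells 21 of the 41 members were higher within both numbers and 8 lower, against 26.8% and 26.6% of all genes, with medians of 0.17 and 0.41 where all genes had -0.01 and 0.02. No member probe set passed the test with limma, with or without the block, and 0 of 27022 probe sets did (0%); at an unadjusted p under 0.05 there were 0 member probe sets (0.625% of all), or 2 with the block, Taf7l and Slc25a31 (5.75% of all). Taf7l was 1.12 ± 0.57 higher (0.89 and 1.36; limma adjusted p = 1.00, or 0.725 with the block), and Slc25a31 1.07 ± 0.54 (0.83 and 1.32; 1.00, or 0.837). Sohlh2 differed by 0.30 ± 0.41.

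Related genes outside the set were taken from lists of the same functions. Of 20 other meiosis, 11 other piRNA, 14 other oocyte and germ cell and 20 other pluripotency genes measured, 65 in all, 35 passed the filter, and 0 of these were called in either treated group with limma. With the block 4 of the 35 were called higher in GFP-positive cells, Mnd1, Ccnb1ip1, Morc1 and Utf1, and 1 lower, the Kruppel-like factor Klf4 (4461 and 3308 in control, 2707 and 2133 in GFP-positive cells); Mnd1 was also called higher in GFP-negative cells. The share over all probe sets with the block was 3.15% for higher and 3.06% for lower calls in GFP-positive cells. With the block but no mean-variance trend 0 of the list genes were called, and the adjusted p-values of these 5 in GFP-positive cells were 0.0838 to 0.247. Mnd1, which with Psmc3ip (Hop2) helps the recombinases to pair strands, read 3.0 and 4.8 in control, 620.9 and 80.6 in GFP-negative, and 1135 and 585.8 in GFP-positive cells. This was 4.62 ± 0.78 (limma adjusted p = 0.109, or 0.000331 with the block) in GFP-positive cells. With control signals this low the size depends on the offset, and it was 2.90 with 4 times the offset and 6.16 with 0.25 of it. Mnd1 passed the filter through the treated arrays. With the block and all probe sets tested, its limma adjusted p was 0.00134 in GFP-positive and 0.0252 in GFP-negative cells. Psmc3ip stood at -0.21. Ccnb1ip1 (Hei10), a crossover regulator, was at 1.96 ± 0.61, Morc1, an ATPase needed for transposon silencing in male germ cells, at 2.42 ± 0.77, and the embryonic stem cell factor Utf1 at 1.78 ± 0.49, with blocked adjusted p-values of 0.0293, 0.0292 and 0.0254. Their control signals were at most 54.0, so they passed the filter through the treated arrays. With the block and all probe sets tested, Ccnb1ip1 and Utf1 were no longer called (adjusted p = 0.0613 and 0.0734), and Morc1 was (0.0411). Median differences of the other lists in GFP-positive cells were -0.07 for meiosis, 0.40 for piRNA, 0.18 for oocyte and -0.07 for pluripotency genes, against 0.04 over all genes. Of 21 somatic relatives of the members, such as Smc1a, Rad21 and Ago2, 17 were above background on all arrays and 0 passed, with or without the block. In GFP-positive cells 12 of the 21 were higher than control within both numbers and 2 lower, against 34.2% and 27.4% of all genes. Their median difference there was 0.15. In GFP-negative cells 8 were higher and 5 lower, with a median of 0.12. Taf7, the relative of Taf7l, was at 0.61 ± 0.46 in GFP-positive cells.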

How the data were processed

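The deposited table held 1 signal intensity on a linear scale for each of 45101 probe sets and 6 arrays, made by MAS5 according to the submitters' processing notes, which as used here name neither version nor settings. Signals were multiplied to give every array a 2% trimmed mean of 500, 64 control probe sets were dropped, 30.64 (the median of the arrays' lower quartiles) was added as an offset, and log2 taken. Probe sets with a mean signal of at least 67.71 (the 40th percentile) were tested, 27022 in all. Groups were compared in R 4.3.3 with limma 3.58.1 over all 6 arrays, with a mean-variance trend, two-sided tests and p-values adjusted by Benjamini-Hochberg over all 27022. On simulated data the fit was checked for bias in the estimated differences, which does not check the p-values. Replicates are labelled biological only, so the p-values reflect spread among these arrays, which may be technical, and their number limits the precision.

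Deviations from the group means correlated between arrays of the same number at 0.513, 0.506 and 0.556 over the 3 pairs of groups, so the number is treated as an array set and used as a block beside each result. The members, lists and rules were chosen with earlier results of these data known. Members given with each array's value were those called with or without the block, those differing by 1 log2 unit in both numbers or above background in control, and, chosen after their values were seen, further members of each role; list genes are those called, with Psmc3ip, the somatic relatives named and the markers added. Alternatives were other scalings, offsets, filters, variance models, probe sets and background levels, and leaving out each array; the block without a trend, without a filter or with quantile normalization, and other levels for counts per group, were added after seeing the data.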

Additional observations from a re-analysis of the deposited data

Results flagged for a closer look

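Msh5 was noted because the treated groups lay on opposite sides of control within both replicate numbers, at 0.0041 and 0.72 in GFP-positive cells and -0.99 and -0.59 in GFP-negative cells for replicates 1 and 2. The probe set was near background on all arrays, and its GFP-positive difference within replicate 1 is next to 0. In limma without a filter GFP-positive exceeded GFP-negative cells by 1.16 ± 0.55 (adjusted p = 1.00; with the block, 0.927). The second Msh5 probe set gave 0.35 ± 0.33.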

How the results depend on the processing

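The counts of called members depend on the replicate block, which uses the pairing by array number (correlations 0.513, 0.506 and 0.556). In GFP-positive cells 0 member probe sets were called without it, and 3 with it, also with quantile normalization or no filter. In GFP-negative cells the counts were 0 without the block, 2 with it or with it and quantile normalization, and 1 with it and no filter. The block without a mean-variance trend gave 0 in both. Over all 27022 probe sets it gave only 5 higher and 3 lower calls in GFP-positive cells, and 0 in GFP-negative cells. Without a block, the other scalings, offsets, filters, variance models, group choices and left-out arrays gave 0 in all 3 comparisons. Among other list genes the count in GFP-positive cells was 0, but 5 with the replicate block or with it and quantile normalization, 3 with it and no filter, and 1 with median centring or with only the 2 groups compared. Leaving out 1 array gave 0 to 1 there, with 1 when either GFP-negative array was left out. In GFP-negative cells it was 0, or 1 with the block under each of the filters and scalings tried. The block without a mean-variance trend gave 0 list genes in both.

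Members near background on all arrays numbered 26, but 17 with the 90th percentile as the level. That level also moved members above it on both arrays from 1 to 3 in control and from 4 to 8 in GFP-negative cells, and the array median gave 3 in control. The differences between GFP-positive and GFP-negative cells of Tdrd7 and Sohlh2 changed sign when 1 array was left out, with ranges of -0.14 to 0.20 (0.03 with all arrays) and -0.027 to 0.62 (0.30 with all arrays); neither was called. Tdrd7 turned without GFP-negative replicate 1 or GFP-positive replicate 2, and Sohlh2 without GFP-positive replicate 1. Fits that leave out 1 array hold the difference between array sets as well. Of the 148 alternative values for the counts, 128 were equal to the main value or within 1.5 times of it. Many of them were counts of calls that were 0 both times. With few calls over all probe sets, those say little about stability. Over all probe sets, the calls numbered 33 without and 1679 with the block in GFP-positive cells, and 8 and 966 in GFP-negative cells. Signal over background limits these data, since 26 of 41 members were near background on all arrays.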
